A study of Mus musculus with 288 samples.

Results

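The results concern 6 genes of methionine and homocysteine metabolism, Cbs, Bhmt, Mat1a, Mat2a, Ahcy and Gnmt, followed over 2 days in 12 mouse tissues. Members were the probe sets annotated to 1 of these symbols alone, which gave 6 probe sets of 4 genes (Cbs, Bhmt, Mat1a and Gnmt) among 19938 genes measured in all. Ahcy had 3 probe sets, each annotated to both Ahcy and Gm4737, so their values are given as shared, and Mat2a had none in the annotation used here. The 12 tissues were liver, kidney, lung, heart, aorta, skeletal muscle, adrenal gland, white adipose, brown adipose, hypothalamus, cerebellum and brainstem, each a group of 24 Affymetrix arrays spaced by 2 h, the first at CT18 and the last at CT64. Circadian time (CT) is the number of hours since subjective day began, that is, since the lights would have come on. All groups shared strain and housing: C57/BL6 mice kept for 1 week at 12 h light and 12 h dark, then held in constant darkness, with the RNA of 3 mice pooled on each array. No genotype or treatment other than darkness set any group apart, and ages are not given in the sources used here. With 1 pool per time and tissue there were no replicates at a time. Every p-value below sets a fitted term against the scatter of pools about the fit. In such bulk RNA, fewer cells of a type and less RNA per cell cannot be told apart.

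Methionine is turned into S-adenosylmethionine, the methyl donor of the cell, by methionine adenosyltransferase, whose liver form is encoded by Mat1a and whose form in most other tissues is encoded by Mat2a. Methyltransferases such as glycine N-methyltransferase (Gnmt), an abundant liver enzyme that methylates glycine, leave S-adenosylhomocysteine, which Ahcy splits into adenosine and homocysteine. Homocysteine is either methylated back to methionine, in liver and kidney partly by betaine-homocysteine methyltransferase (Bhmt), or committed to cysteine by cystathionine beta-synthase (Cbs). Liver is the main organ of this cycle, Cbs is also known from kidney and from astrocytes and Bergmann glia of the brain, and loss of CBS in people causes homocystinuria.

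In mouse build GRCm38.p6, as RefSeq annotates it, the genes lie at chr14:41105012-41124428 (Mat1a), chr17:46725664-46729211 (Gnmt), chr13:93616891-93637758 (Bhmt), chr17:31612623-31637233 (Cbs), chr2:155059310-155074497 (Ahcy) and chr6:72432796-72439556 (Mat2a). Bhmt has an annotated pseudogene, Bhmt-ps1, at chr4:26368404-26370275, and Gm4737 lies at chr16:46152985-46155077, so signal of Bhmt and of the shared Ahcy probe sets could come in part from those loci. RefSeq promoters of 300 bases (250 before the annotated start and 50 after it) were on hand for Cbs, Bhmt, Mat2a, Ahcy and Gnmt, and not for Mat1a. Those of the 2 genes with the widest 24 h waves in liver, both on the minus strand, are shown 5′ to 3′, with motif matches in capitals: CACGTG, the E-box that the CLOCK and ARNTL pair can bind, in Cbs (chr17:31637156-31637455), and AGGTCA, the half-site of many nuclear receptors, in Bhmt (chr13:93637709-93638008).
Cbs: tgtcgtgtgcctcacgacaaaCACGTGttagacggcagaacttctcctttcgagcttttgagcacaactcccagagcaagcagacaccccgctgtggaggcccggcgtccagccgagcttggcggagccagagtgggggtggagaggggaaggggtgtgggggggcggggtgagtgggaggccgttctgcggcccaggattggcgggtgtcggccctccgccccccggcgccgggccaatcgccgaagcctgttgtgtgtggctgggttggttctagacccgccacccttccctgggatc
Bhmt: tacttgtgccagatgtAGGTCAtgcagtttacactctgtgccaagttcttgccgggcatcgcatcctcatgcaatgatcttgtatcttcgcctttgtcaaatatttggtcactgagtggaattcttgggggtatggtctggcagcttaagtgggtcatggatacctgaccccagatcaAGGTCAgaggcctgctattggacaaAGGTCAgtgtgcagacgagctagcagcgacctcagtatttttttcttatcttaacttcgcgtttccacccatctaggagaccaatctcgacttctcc
The Cbs window held 1 CACGTG, beginning 229 bases before the start, a motif found in 7.15% of 32851 promoters of the same length. The Bhmt window held AGGTCA 3 times, beginning 234, 72 and 47 bases before the start. At least 1 AGGTCA or its reverse complement TGACCT was found in 16.3% of all promoters and at least 3 in 0.183%. Ahcy and Gnmt each held 1 TGACCT, and none of the 5 windows held TTATGTAA, TTACGTAA or TGTTCT on either strand. A match describes the letters of the window and was not tested as a binding site.

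Liver held the highest level of all 4 genes. Levels are log2 of the deposited intensity, with the mean ± SD over the 24 arrays of a tissue; the deposited values look as if each tissue had been normalized on its own, and levels set across tissues depend on that step. In liver, Mat1a ran from 13.35 through a median of 13.46 to 13.55, Gnmt from 12.80 through 12.94 to 13.06, Bhmt from 13.11 through 13.47 to 13.61 and Cbs from 12.02 through 12.36 to 12.64. No array of another tissue reached the liver range of any of the 4, the highest being an adrenal array at 11.62 for Mat1a, 11.73 for Gnmt and 12.21 for Bhmt, and a kidney array at 11.05 for Cbs. On the percentile scale of all genes on an array, liver Mat1a averaged 99.8, Bhmt 99.8, Gnmt 99.3 and Cbs 98.3.

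**Figure D1:**
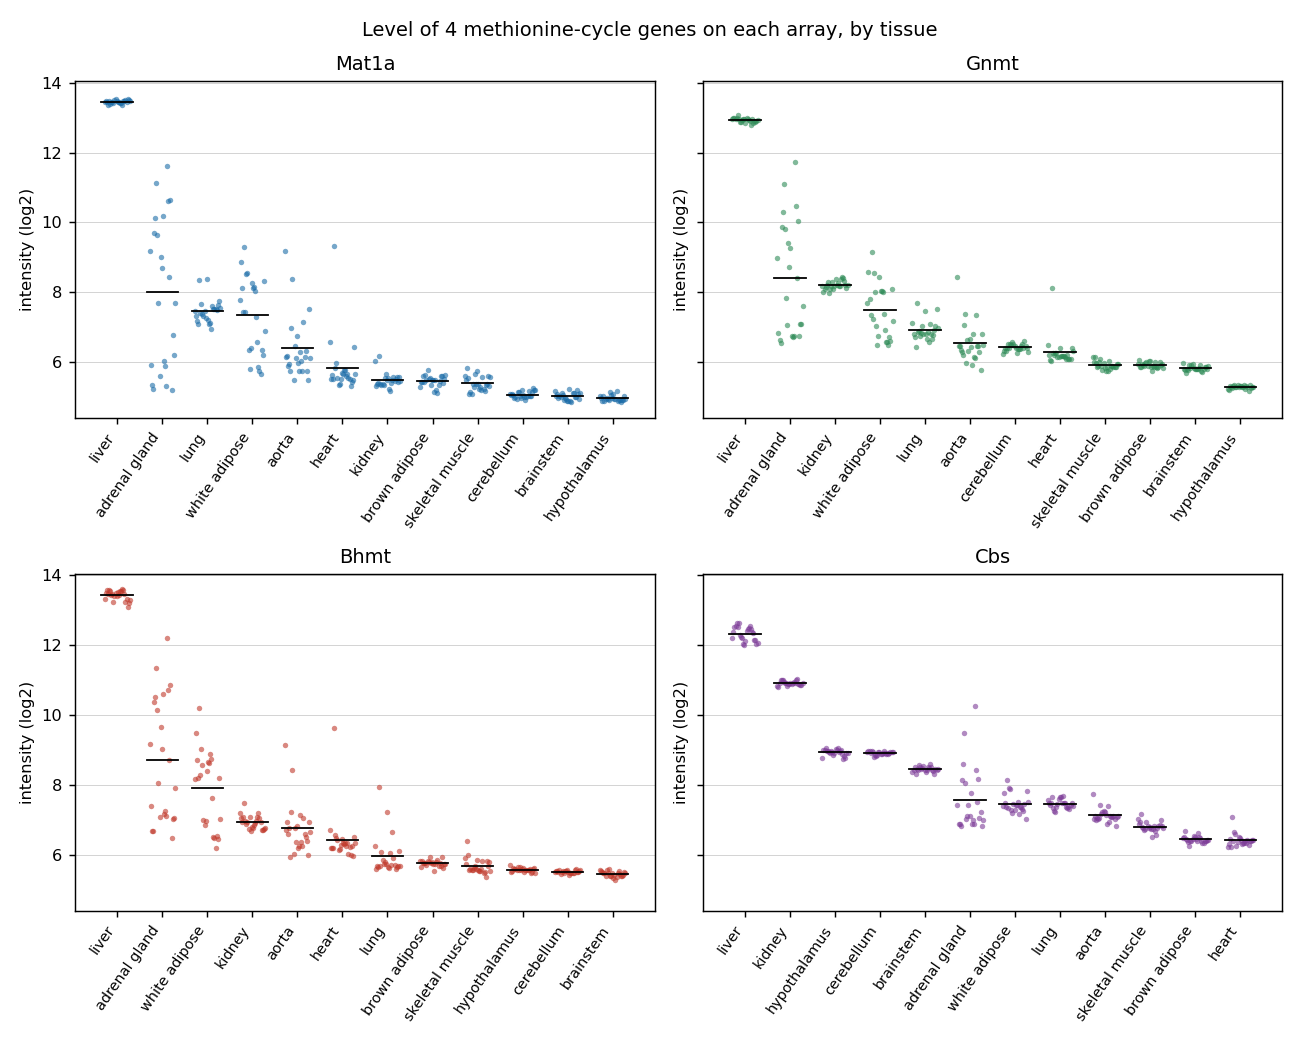
Intensity (log2) of Mat1a, Gnmt, Bhmt and Cbs on every array (points, in order of time within a tissue), tissues ordered by mean (black line). Liver stands apart for all 4 genes. Cbs has further tight groups (kidney at 10.92, hypothalamus at 8.94, cerebellum at 8.92 and brainstem at 8.46), and Gnmt has one in kidney at 8.21. The adrenal gland and white adipose have the widest scatter.

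Cbs, which commits homocysteine to cysteine, was the member with the clearest levels outside liver. Kidney averaged 10.92 ± 0.06, hypothalamus 8.94 ± 0.09, cerebellum 8.92 ± 0.04 and brainstem 8.46 ± 0.07, followed by the adrenal gland at 7.59 ± 0.90, white adipose at 7.47 ± 0.26 and lung at 7.46 ± 0.13. The lowest were aorta at 7.13 ± 0.19, skeletal muscle at 6.81 ± 0.14, brown adipose at 6.45 ± 0.09 and heart at 6.42 ± 0.18. Kidney lay above every brain array and liver above every kidney array, while 8 of the 11 neighbouring pairs in this order overlapped, hypothalamus and cerebellum among them. Astrocyte markers were highest in cerebellum (mean of the list 10.87) and next in brainstem (10.53), and among the brain tissues lowest in hypothalamus (10.34), where Cbs was highest; their part in the Cbs order was not tested.

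Mat1a, the liver form of methionine adenosyltransferase, was at 13.46 ± 0.05 in liver and at 8.0 ± 2.16 in the adrenal gland, 7.47 ± 0.34 in lung and 7.34 ± 1.11 in white adipose. Aorta (6.40 ± 0.90), heart (5.82 ± 0.80), kidney (5.50 ± 0.22), brown adipose (5.46 ± 0.16) and skeletal muscle (5.40 ± 0.21) followed, and the brain tissues were lowest, between 4.97 ± 0.08 in hypothalamus and 5.08 ± 0.09 in cerebellum. The mean of 12 testis germ cell genes, listed as a floor, lay between 5.16 and 5.62 by tissue, although levels of different probe sets are not on 1 scale and single genes of that list were higher, up to 9.47 for Tekt5 in hypothalamus. Of 11 neighbouring pairs of tissues, 10 overlapped, all but liver and the adrenal gland.

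Bhmt, the betaine-dependent methyltransferase, followed the same outline: liver 13.43 ± 0.14, adrenal gland 8.72 ± 1.77, white adipose 7.91 ± 1.10, kidney 6.94 ± 0.20, aorta 6.76 ± 0.73, heart 6.44 ± 0.70 and lung 5.97 ± 0.57, with the other tissues between 5.46 and 5.76. Gnmt, the glycine methyltransferase, averaged 12.93 ± 0.06 in liver, 8.41 ± 1.63 in the adrenal gland, 8.21 ± 0.12 in kidney, 7.49 ± 0.78 in white adipose and 6.93 ± 0.29 in lung, and between 5.29 and 6.56 elsewhere. Neighbouring tissues overlapped in 10 of 11 pairs for Bhmt and 9 of 11 for Gnmt. The 3 Bhmt probe sets differed: the one used here averaged 13.43 in liver, another 13.46, and a dimmer one 10.44, and all 3 were highest in liver.

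The 3 probe sets shared by Ahcy, which splits S-adenosylhomocysteine, and Gm4737 averaged 13.28 to 13.47 in liver, 11.04 to 11.59 in kidney and 9.16 to 9.58 in the adrenal gland. Their lowest tissue mean was in cerebellum, 7.95 to 8.06.

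Over the 24 liver arrays, 3 of the 4 genes were rhythmic, meaning that limma's moderated F test of a 24 h cosine and sine gave an adjusted p under 0.05 (Benjamini-Hochberg over 19938 genes). By the same test 26.8% of all genes were rhythmic in liver. Cbs had the widest wave. It rose from 12.20 at CT18 to 12.64 at CT26, fell to 12.02 at CT40, rose again to 12.54 at CT50 and fell to 12.03 at CT62. The fitted peak-to-trough fold was 1.43 (95% interval 1.36 to 1.52), with a peak early in the subjective day at CT2.00 (SE 0.286 h) and an adjusted p of 1.55e-09. Fitted apart, day 1 (CT18 to CT40) gave 1.48-fold with a peak at CT2.30 and day 2 (CT42 to CT64) 1.39-fold with a peak at CT1.65.

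Bhmt peaked close to Cbs. Its values lay between 13.25 at CT34 and 13.59 at CT22 on day 1, and between 13.11 at CT60 and 13.61 at CT50 on day 2. The fitted fold was 1.23 (1.15 to 1.32), the peak CT0.422 (SE 0.632 h) and the adjusted p 0.000193. Day 1 gave 1.13-fold and day 2 1.34-fold, a difference with an unadjusted p of 0.0234 that did not pass adjustment (adjusted p 1.0). The other bright Bhmt probe set gave 1.24-fold with a peak at CT0.274 (adjusted p 0.000165 over 35556 probe sets, with 20.1% of probe sets called), whereas the dimmer one gave 1.18-fold at CT19.3 and did not pass (adjusted p 0.255).

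Mat1a moved little, and in the opposite phase. Its lowest and highest arrays were 13.35 at CT24 and 13.53 at CT38 on day 1, and 13.35 at CT50 and 13.55 at CT60 on day 2. The fitted fold was 1.06 (1.03 to 1.10) with a peak at CT12.9 (SE 0.961 h) and an adjusted p of 0.012, 10.9 h away from the Cbs peak; without the trend of variance on mean expression the adjusted p was 0.0607. Gnmt ran between 12.80 at CT52 and 13.06 at CT28, with a fitted fold of 1.05 (1.01 to 1.10) and an adjusted p of 0.198. The shared Ahcy and Gm4737 probe sets each gave 1.10-fold in liver with peaks between CT17.1 and CT17.4 (adjusted p 5.47e-06 to 2.47e-05 over all probe sets), between the peaks of Mat1a and Bhmt. Beside these, Arntl, a core clock gene, had a fold of 12.1 in liver and Dbp, a direct clock output, 13.7.

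**Figure D2:**
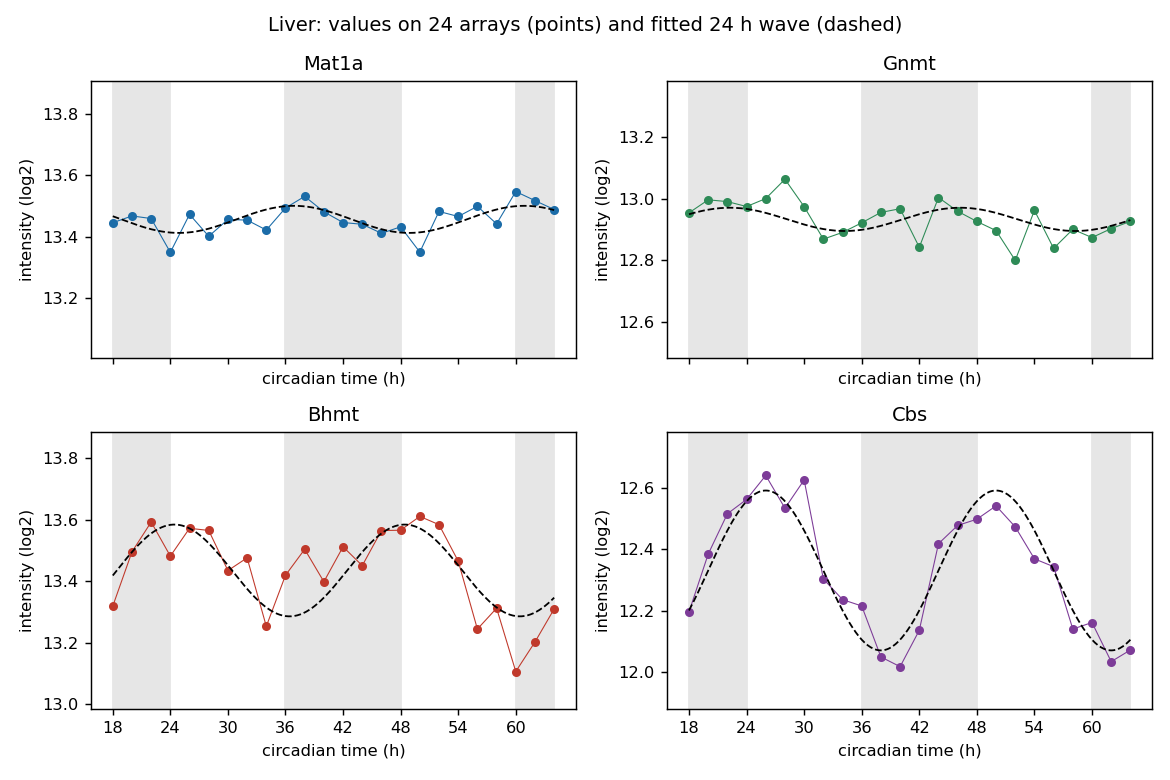
Liver intensity (log2) of Mat1a, Gnmt, Bhmt and Cbs on each array against circadian time, with the fitted 24 h wave dashed and subjective night shaded; every panel spans the same log2 range. Cbs swings between 12.02 and 12.64 on day 1 and between 12.03 and 12.54 on day 2, Bhmt less evenly, and Mat1a (13.35 to 13.55) and Gnmt (12.80 to 13.06) least.

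The genes whose liver courses were most like each member's are given as a description, by Pearson's r over the same 24 arrays, which share pools and processing. For Cbs they were Ubxn1 (r = 0.937), Hsd3b7, an enzyme of bile acid synthesis (0.923), and Amdhd1, of histidine breakdown (0.919). For Bhmt they were Kynu, of tryptophan breakdown (0.870), Cth, the enzyme that acts just after Cbs (0.858), and Lyplal1 (0.849). For Mat1a they were St3gal5 (0.809), Slc16a7 (0.778) and Fkbp5, a glucocorticoid-induced gene (0.777), and for Gnmt the mitochondrial genes Uqcrc1 (0.763), Tufm (0.728) and Nipsnap1 (0.718). Among the members, Cbs and Bhmt had r = 0.631 and Cbs and Mat1a -0.564. Over the 12 tissue means the nearest gene was Impa1 for Cbs (0.981), and secreted or bile acid transport genes of hepatocytes for Bhmt (Slc10a1, 0.998), Mat1a (Fetub, 0.995) and Gnmt (Apoh, 0.977, itself one of the hepatocyte markers below).

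In kidney 2 of the 4 genes were rhythmic, against 25.8% of all genes. Cbs lay between 10.82 at CT20 and 11.02 at CT26 on day 1, and between 10.85 at CT62 and 11.05 at CT54 on day 2. Its wave was narrow, 1.09-fold (1.06 to 1.13), with a peak at CT3.43 (SE 0.740 h) and an adjusted p of 0.0011. Bhmt, at 6.69 to 7.49, gave 1.28-fold (1.13 to 1.44) with a peak at CT1.62 (SE 0.904 h) and an adjusted p of 0.00743. Over all probe sets (16.3% called) the same Bhmt probe set passed (0.0182) and the other 2 did not, at 1.18-fold (0.0794) and 1.14-fold (0.185). The array at CT54, where kidney Cbs and Gnmt (8.43) were highest, also had the highest mean of pancreatic acinar markers, 7.07 against a tissue median of 5.71. With that mean as a covariate, or with the hepatocyte mean as one, 2 genes were called in kidney as well. Gnmt (1.06-fold, adjusted p 0.605), Mat1a (1.03-fold, 0.956) and the shared Ahcy probe sets (1.03-fold to 1.06-fold, 0.122 to 0.728) did not pass there.

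In the other 10 tissues 5 of 40 pairs of gene and tissue passed, with 1 gene in each of 5 tissues. Lung Cbs, between 7.24 at CT32 and 7.70 at CT46, gave 1.19-fold (1.10 to 1.29) with a peak at CT19.3 (SE 0.825 h; adjusted p 0.00407, with 20.9% of genes called). Brown adipose Cbs gave 1.13-fold (1.05 to 1.21) with a peak at CT20.0 (adjusted p 0.0428, 16.5% of genes called), a call lost with a straight line over time in the model (0.0802) or with arrays centred on their medians (0.173). In both tissues the peak fell late in the subjective night, before the CT2.00 of liver. Cerebellar Gnmt gave 1.14-fold (1.08 to 1.21) with a peak at CT8.82 (adjusted p 0.0145, 5.49% of genes called), which missed the threshold on ranks (0.0524) and with the hepatocyte mean as a covariate (0.0562, at 1.13-fold with a peak at CT8.87).

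The other 2 calls had the largest folds and lay in tissues whose hepatocyte markers differed widely between arrays, as they also did in heart and aorta. Adrenal Cbs, from 6.84 at CT24 through a median of 7.17 to 10.26 at CT50, gave 2.89-fold (1.64 to 5.09) with a peak at CT4.72 (adjusted p 0.0498, 5.89% of genes called). The adjusted p was 0.0836 with the hepatocyte mean as a covariate, where the fold was 1.78, and 0.181 without the 3 arrays that stand apart, among them CT50 (3.73% of genes called). It was 0.101 on ranks and 0.0634 with a straight line in the model. With array weights all 4 adrenal genes passed (Cbs 0.00482, Gnmt 0.0212, Bhmt 0.0398 and Mat1a 0.0458), where 15.8% of all genes were called. White adipose Bhmt, from 6.21 at CT56 through 8.20 to 10.21 at CT26, gave 4.05-fold (2.06 to 7.95) with a peak at CT22.2 (adjusted p 0.0295, 4.85% of genes called). With the hepatocyte mean as a covariate it was 1.57-fold with an adjusted p of 0.16, and the call was also lost on ranks (0.0912) and with a straight line (0.132). Without the 7 arrays that stand apart (CT26 and CT30 among them, 6.79% of genes called) it was 5.69-fold (0.000464), and Mat1a (5.64-fold, 0.00149) and Gnmt (3.03-fold, 0.00234) passed in white adipose too. Tested over all probe sets, white adipose Bhmt passed on the probe set used here (0.0442) and on the other bright one (4.42-fold, 0.0423). The dimmer one gave 1.20-fold and did not pass (0.379).

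No gene passed in aorta (5.09% of all genes called), brainstem (4.78%), heart (8.64%), hypothalamus (1.8%) or skeletal muscle (5.12%). Hypothalamic Cbs came nearest, at 1.12-fold with a peak at CT22.9 and an adjusted p of 0.0976. It passed without the 2 arrays that stand apart there (1.14-fold, 0.0111, 3.36% called). With array weights it passed as well (1.12-fold, peak CT22.3, 0.00655), where the share of all genes called is not given here. Skeletal muscle Mat1a, at 1.24-fold (0.154), also passed without the 5 arrays that stand apart there (1.30-fold, 0.0380; 2.88% called). In limma the waves of the 2 days differed for 0 of 48 pairs (9 at an unadjusted p under 0.05, and 0 on ranks), with 0% of genes called over the 12 tissues. A trend over the 2 days passed for 0 of 48 pairs in limma (9 unadjusted, 0 on ranks; 0.427% of genes called) and a 12 h wave for 0 (7 unadjusted, 0 on ranks; 1.02%).

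**Figure D3:**
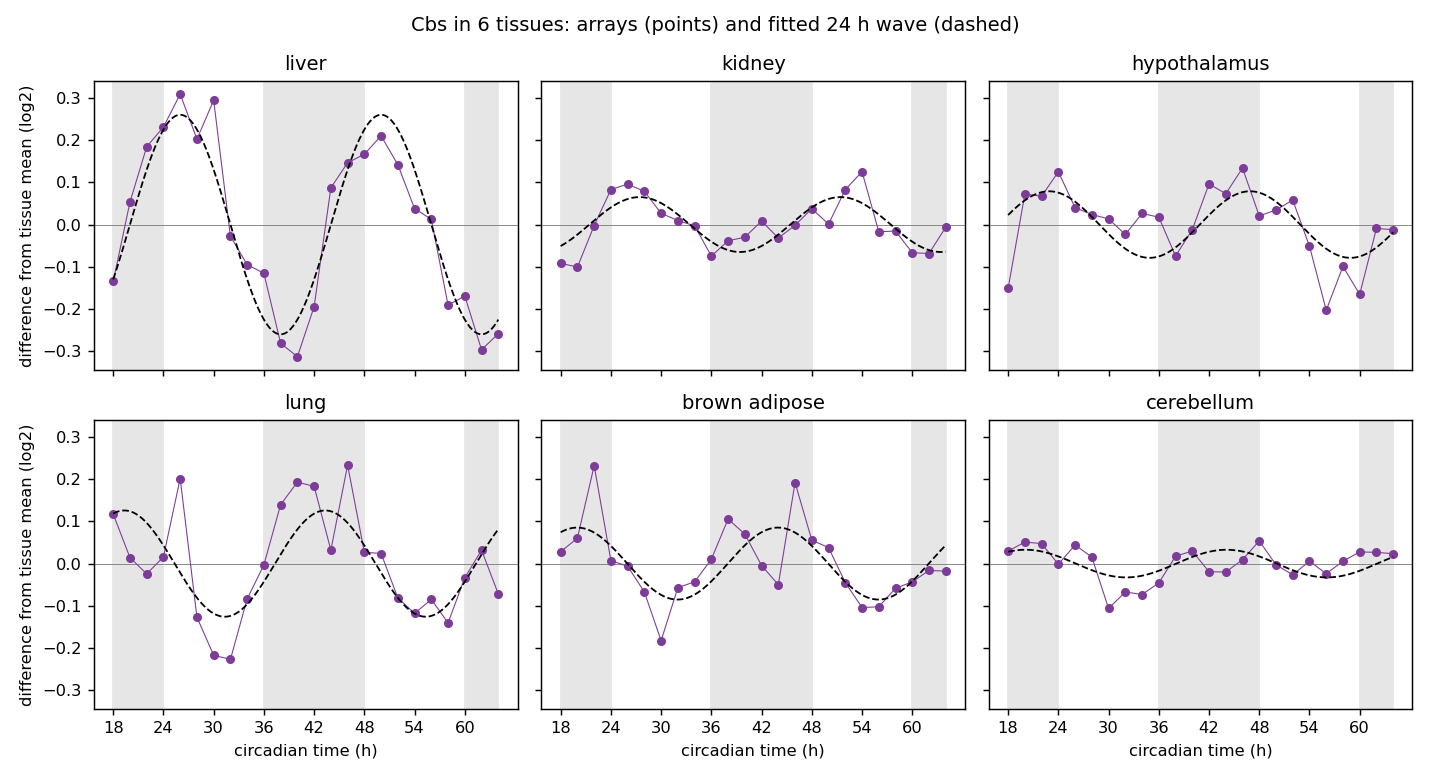
Cbs on each array as the difference from its tissue mean (log2) against circadian time in 6 tissues, with the fitted 24 h wave dashed and subjective night shaded. The liver wave (1.43-fold, peak CT2.00) is wider than those of kidney (1.09-fold, CT3.43) and lung (1.19-fold, CT19.3), and the lung and brown adipose curves crest before liver's.

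Whether the waves differ between tissues was tested in 1 fit to all 288 arrays. All 4 genes passed the test of 22 tissue-by-wave coefficients, against 49.6% of all genes, with adjusted p of 2.36e-11 for Cbs, 0.000264 for Bhmt, 0.00278 for Mat1a and 2.84e-05 for Gnmt. Set against liver 1 tissue at a time, 7 of 44 pairs passed, against 20.3% of all pairs of gene and tissue: all 4 genes in the adrenal gland (22.6% of genes called), Cbs in aorta (adjusted p 0.038; 20.7%) and lung (0.0486; 20.7%), and Bhmt in white adipose (0.0176; 26.7%). That fit gives every tissue 1 common spread, although the SD of Mat1a was 2.16 in the adrenal gland and 0.05 in liver. With liver and the other tissue alone in the fit, 15 pairs passed (18.8% of all pairs of gene and tissue), of which 3 were among the 7. None of the adrenal pairs did (adjusted p 0.110 to 0.270; 13.1% of genes called), while Cbs differed from liver in 9 of 11 tissues, all but the adrenal gland (0.110) and white adipose (0.197). Among these, kidney Cbs, with its peak at CT3.43 and its smaller fold, gave an adjusted p of 2.44e-08 alone with liver (20.2% of genes called) and 0.390 in the fit of all tissues (15.6%), and lung Cbs gave 4.90e-09 (27.5%). Bhmt differed from liver in 5 tissues in these fits, Gnmt in cerebellum alone (0.000738) and Mat1a in none (lowest adjusted p 0.083).

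Hepatocyte marker RNA outside liver was followed through the mean of 19 hepatocyte markers (albumin, apolipoproteins, fibrinogen chains and other secreted and metabolic genes, none of them a member). In liver this mean lay between 13.41 and 13.52. It ranged from 6.51 to 12.16 in the adrenal gland, from 7.06 to 10.09 in white adipose, from 6.78 to 10.12 in aorta and from 6.10 to 10.21 in heart, where the median was 6.28. Elsewhere the highest array was at 7.72 in lung and kidney, 7.28 in skeletal muscle, 6.85 in brown adipose, 6.40 in cerebellum, 6.24 in hypothalamus and 6.11 in brainstem. Of the 11 tissues, 3 (heart, kidney and lung) had their highest mean at the same time, CT26.

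Each member was then regressed on this mean within each tissue, with the 24 h wave in the model; a slope of 1 means that the gene rose by 1 log2 unit per log2 unit of the markers. A slope passed the test in 25 of 44 pairs, against 3.8% of all pairs of gene and tissue, and all 25 were positive: 8 of 11 tissues for Bhmt, 7 for Mat1a, 5 for Cbs and 5 for Gnmt. All 4 genes passed in the adrenal gland (4.76% of all genes called), aorta (1.08%), heart (1.68%) and white adipose (1.81%). In lung 3 passed (0.677%), in kidney (0.186%) and skeletal muscle (1.07%) 2, and in brown adipose (0.0702%), cerebellum (0.361%) and hypothalamus (0.00502%) none. Brainstem gave 2, but there 30.1% of all genes passed and the marker mean spanned only 0.157. Without the 2 arrays of highest marker mean 17 pairs passed (4.16% of all); the calls lost were those of Cbs and Gnmt in heart, of Cbs in aorta and brainstem, and both in kidney and in skeletal muscle.

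For the probe sets used here, slopes were steepest for Mat1a and Bhmt and shallowest for Cbs, by their values in the 4 tissues where all passed. In the adrenal gland they were 1.18 ± 0.03 (slope ± SE) for Mat1a, 0.94 ± 0.03 for Bhmt, 0.83 ± 0.04 for Gnmt and 0.36 ± 0.05 for Cbs, with adjusted p from 2.45e-21 to 3.58e-06. White adipose gave 1.14 ± 0.08, 1.0 ± 0.08, 0.78 ± 0.08 and 0.26 ± 0.05 in the same order of genes. Aorta gave 1.04 ± 0.06, 0.86 ± 0.05, 0.66 ± 0.05 and 0.17 ± 0.03, and heart 0.94 ± 0.04, 0.82 ± 0.03, 0.49 ± 0.03 and 0.17 ± 0.03. Over all probe sets, the other bright Bhmt probe set gave 1.03, 1.04, 0.86 and 0.77 in the adrenal gland, white adipose, aorta and heart. The dimmer one gave 0.20, 0.13, 0.24 and 0.04, and did not pass in white adipose (adjusted p 0.115) or heart (0.9997). These slopes describe genes that move with the markers on the same arrays, and the order of slopes between genes was not tested.

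In heart, the adrenal gland and aorta all 4 genes were at their tissue maximum on the array of highest marker mean, whereas in brown adipose and cerebellum Cbs ranked 19 and 22 of 24 on that array. On the heart array at CT26 the marker mean was 10.21, and all 4 genes were at their heart maximum: Bhmt 9.63 against a median of 6.30, Mat1a 9.32 against 5.63, Gnmt 8.14 against 6.19 and Cbs 7.09 against 6.39. The excess of each gene over its heart median, on the linear scale, was at CT26 6.40% of the mean liver level for Bhmt, 5.23% for Mat1a, 2.67% for Gnmt and 0.997% for Cbs, beside a median of 10.2% over the markers (2.14% to 75.6%). On the adrenal array at CT50 the same measure gave 39.8% for Gnmt, 39.4% for Bhmt, 25.6% for Mat1a and 20.8% for Cbs, beside 35.2% over the markers (19% to 49.0%). The markers differed widely in this measure on the same array, so these percentages are not read as shares of liver RNA. The aorta array of highest marker mean was at CT18.

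**Figure D4:**
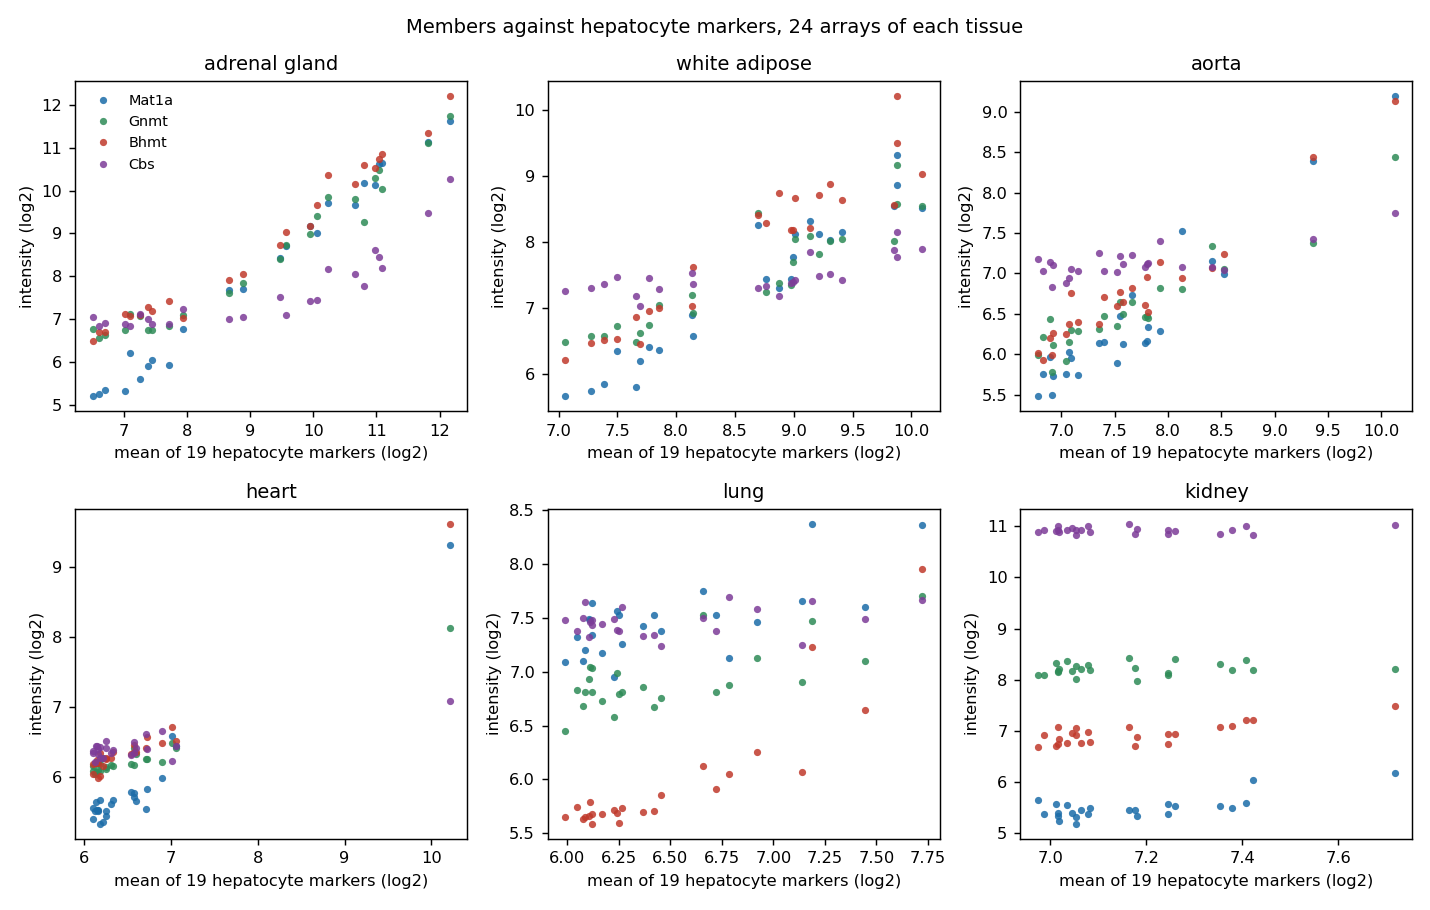
Intensity (log2) of the 4 genes against the mean of 19 hepatocyte markers (log2) on the 24 arrays of 6 tissues, each panel on its own axes. Mat1a, Gnmt and Bhmt climb with the markers in the adrenal gland, white adipose and aorta, 1 heart array sits far to the right at 10.21, and Cbs and Gnmt in kidney stay level.

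On the arrays with the lowest marker mean, levels differed by gene and tissue. On the 3 adrenal arrays of lowest marker mean (6.51 to 6.70), Mat1a was at 5.20 to 5.34, near its levels in the brain tissues, Bhmt at 6.48 to 6.70, Gnmt at 6.56 to 6.76 and Cbs at 6.84 to 7.05. White adipose gave Mat1a 5.67 to 5.86 on its 3 lowest arrays (markers 7.06 to 7.38). Lung differed: on its 3 lowest arrays, with markers at 5.99 to 6.07 as in brain, Mat1a was still at 7.09 to 7.32, while Bhmt was at 5.64 to 5.75. In kidney the 3 lowest arrays (markers 6.97 to 7.01) had Cbs at 10.88 to 10.92 and Gnmt at 8.09 to 8.33, where the slopes of Cbs (-0.04 ± 0.05) and Gnmt (0.08 ± 0.14) did not pass. Cbs in cerebellum was at 8.90 to 8.97 on the 3 lowest arrays and 8.85 to 8.95 on the 3 highest.

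Taking the hepatocyte mean into the model of the wave left 6 of 44 pairs outside liver rhythmic (8.73% of all pairs of gene and tissue), of which 4 were called without it as well: Cbs in kidney, lung and brown adipose, and Bhmt in kidney (1.22-fold, peak CT0.292, adjusted p 0.000326). The calls of adrenal Cbs, white adipose Bhmt and cerebellar Gnmt were those lost, the last with its fold at 1.13 against 1.14. In lung, Mat1a (1.37-fold, peak CT12.1, adjusted p 0.0117) and Gnmt (1.38-fold, peak CT14.1, adjusted p 0.00124) passed with the covariate, at 19.9% of all genes called, against 1.21-fold (0.508) and 1.17-fold (0.518) without the covariate. Without lung CT26, the array that stands apart by its hepatocyte markers, Gnmt was at 1.32-fold (0.0451) and Mat1a at 1.32-fold (0.121), with 19% of genes called. The marker mean itself had a fitted fold of 4.38 in the adrenal gland with a peak at CT5.87, and of 2.60 in white adipose with a peak at CT21.9, where 1 of 19 markers was rhythmic in each. The members' fitted peaks lay between CT4.72 and CT5.99 in the adrenal gland, and between CT21.1 and CT22.2 for Mat1a, Gnmt and Bhmt in white adipose. How much of those waves comes from hepatocyte RNA was not tested beyond this covariate.

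The members' partners were taken from 7 lists of methionine, sulfur and one-carbon genes, 72 in all and 65 measured, most of them (41) at their highest in liver. In liver 37 of the 65 were rhythmic, where 26.8% of all genes were, 10 with a peak in subjective day and 27 in subjective night, and the median fold was 1.15 over the 65 and 1.09 over all genes. In kidney 30 were rhythmic, against 25.8% of all genes, 19 by day and 11 by night, with a median of 1.08 for both. The splits by day and night, here and for the lists below, were not set beside the split of all rhythmic genes. They are therefore not read as a trait of these lists. The number in the other tissues lay between 3 in hypothalamus (1.8% of all genes called) and 15 in brown adipose (16.5%).

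Around the 4 genes, 3 of 7 methionine cycle partners were rhythmic in liver, all by night: Ahcyl2, an Ahcy-like protein (1.90-fold, peak CT20.0, adjusted p 2.38e-06), Mtrr, the reductase that keeps methionine synthase active (1.41-fold, CT17.0), and Bhmt2, which uses S-methylmethionine (1.31-fold, CT21.6, adjusted p 6.13e-09). Methionine synthase itself, Mtr, gave 1.09-fold (adjusted p 0.510) in liver but was rhythmic in kidney at 1.35-fold with a peak at CT21.6 (1.02e-07), where 5 of the 7 passed.

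Downstream of Cbs, 8 of 11 genes of transsulfuration and cysteine use were rhythmic in liver, 4 by day and 4 by night, with a median fold of 1.31. Cth, which makes cysteine from cystathionine, gave 1.31-fold with a peak at CT0.318 (adjusted p 4.56e-06), near Bhmt and Cbs. Ethe1, which oxidises sulfur from hydrogen sulfide (2.12-fold, CT23.8), Tst (1.81-fold, CT21.8) and Mpst (1.51-fold, CT20.5), both sulfurtransferases, peaked before it. Gss, of glutathione synthesis, peaked at CT10.4 (1.49-fold). In kidney 5 of 11 passed, among them Ethe1 (1.54-fold, CT0.382) and Tst, there with a peak at CT11.8 (1.69-fold).

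Of the folate cycle, which supplies methyl groups to methionine synthase, 10 of 15 measured genes were rhythmic in liver. Fpgs, which adds glutamates to folate (2.08-fold, CT22.0), Amt (2.07-fold, CT1.08) and Gldc (1.86-fold, CT21.8), both of glycine cleavage, and Slc19a1, a folate carrier (1.52-fold, CT11.0), had the widest waves. In kidney 8 of the 15 passed, led by Gldc (1.64-fold, CT18.0) and Mthfd1l, a mitochondrial folate enzyme (1.31-fold, CT10.6). For choline and betaine oxidation, the source of the substrate of Bhmt, 3 of 6 passed in liver, Slc44a1, a choline transporter, at 1.52-fold (CT22.9) and Dmgdh and Aldh7a1 at 1.09-fold and 1.08-fold, and 1 of 6 in kidney, Chdh, the choline dehydrogenase (1.09-fold, CT9.31).

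Among 13 measured S-adenosylmethionine-using methyltransferases 7 were rhythmic in liver, 6 of them by night, with Nnmt, which methylates nicotinamide (1.36-fold, CT15.9), As3mt, which methylates arsenic (1.34-fold, CT19.2), and Dnmt3a, a DNA methyltransferase (1.27-fold, CT4.97), in front, and 4 in kidney, Mettl7b (1.23-fold, CT17.0) and Inmt (1.20-fold, CT11.2) leading. Methionine salvage and polyamine genes passed in 2 of 6 cases in liver, Srm, spermidine synthase (1.90-fold, CT14.7), and Mtap (1.41-fold, CT21.6), and in 3 of 6 in kidney. Of 7 measured genes listed as regulators 4 passed in each organ: in liver Ppara (1.49-fold, CT10.1), Mettl16, which controls Mat2a RNA (1.30-fold, CT22.1), Nr1h4, the bile acid receptor (1.22-fold, CT13.0), and Dnmt3b (1.58-fold, CT21.1), a DNA methyltransferase and no regulator in the usual sense.

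**Figure D5:**
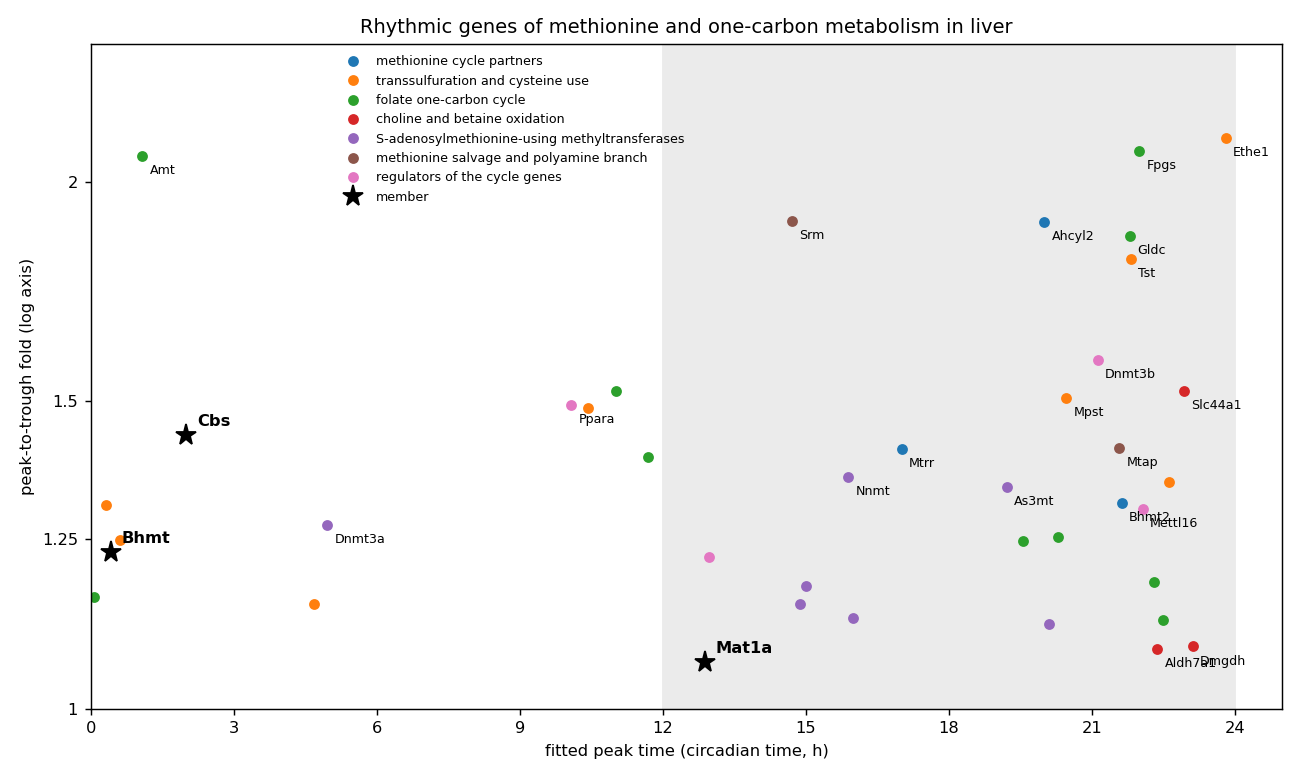
Fitted peak time (circadian time, h) and peak-to-trough fold (log axis) of the 37 rhythmic pathway genes in liver, coloured by list, with the 3 rhythmic members as stars and subjective night shaded. Many folate and sulfur genes lie between CT20 and CT24 with folds up to 2.12. Cbs (1.43-fold) and Bhmt (1.23-fold) lie just after the start of the subjective day and Mat1a (1.06-fold) just after its end. Other folate and sulfur genes lie near Cbs and Bhmt: Amt (CT1.08), Gclc (CT0.619), Cth (CT0.318) and Mthfd1 (CT0.0789).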

How the data were processed

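Mouse RNA was measured on 288 arrays, 24 per tissue, grouped by the tissue label. GCRMA and Affymetrix Expression Console are named in the submitters' processing notes; versions are not given in the sources used here. The deposited values are linear intensity, 1 per probe set and array, from 6.9 to 45307.8, with array medians between 95.2 and 106.6. Since log2 values had been assumed when the tests were planned, log2 of the deposited intensity was taken, with no pseudocount or filter. Of 35556 probe sets, 21789 carried 1 symbol, and a gene with several was represented by the one of highest mean over all arrays, giving 19938 genes. The number of arrays limits the precision.

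For each tissue a 24 h cosine and sine were fitted with limma 3.58.1 (R 4.3.3; moderated F test, trend on mean expression), with Benjamini-Hochberg adjustment over 19938 genes and a threshold of 0.05; folds are 2 to the power of the fitted peak-to-trough log2 difference. Differences between tissues were tested in 1 fit of all arrays. Hepatocyte slopes used the mean of 19 of 20 listed markers, with the wave in the model. An array was taken to stand apart if, against the median of its tissue, a marker list mean was off by more than both 5 scaled MADs and 1 log2 unit, or its median correlation to the other arrays was lower by more than both 5 scaled MADs and 0.003; 23 arrays in 9 tissues were, 3 of them by hepatocyte markers. Alternatives covered normalization, ranks, array weights, covariates, left-out arrays and probe set choice. The fits were tested on simulated data. Markers of each labelled organ were highest where the labels put them. Members, gene lists and tests were chosen with earlier results of these data known; genes were named by rule: all members, per pathway list up to 4 rhythmic genes of largest fold in liver and up to 2 in kidney, and the 3 genes most like each member. Mtr in liver was added after its values were seen.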

Additional observations from a re-analysis of the deposited data

Results flagged for a closer look

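The 24 h wave differed between tissues for all 4 measured genes in the fit of all arrays, against 49.6% of all genes. The adjusted p of the moderated F test was 2.36e-11 for Cbs, 0.000264 for Bhmt, 0.00278 for Mat1a and 2.84e-05 for Gnmt. That fit gives every tissue 1 common spread. With liver and 1 other tissue alone in the fit, Mat1a differed in none (lowest adjusted p 0.083). The fitted Cbs peak lay at CT2.00 in liver, CT3.43 in kidney, CT19.3 in lung and CT20.0 in brown adipose.

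In the fit of all arrays, the adrenal waves differed from those of liver for Cbs (2.41e-06), Bhmt (0.0029), Mat1a (0.00237) and Gnmt (1.68e-05). By that test 22.6% of all genes were called. With the 2 tissues alone none of the 4 differed (adjusted p 0.110 to 0.270, 13.1% of genes called). The adrenal folds were 2.89 to 5.72, and only the wave of Cbs passed in that tissue (adjusted p 0.0498, 5.89% of genes called). Bhmt (4.61-fold, 0.286), Mat1a (5.72-fold, 0.350) and Gnmt (4.91-fold, 0.178) did not. The dimmer Bhmt probe set gave 1.10-fold. The mean of the hepatocyte markers ranged over 5.65 log2 units in the adrenal gland.

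Cbs differed from liver in aorta (0.038, 20.7% of genes called) and in lung (0.0486, 20.7%), and Bhmt in white adipose (0.0176, 26.7%). With the 2 tissues alone these gave 0.000298, 4.90e-09 and 0.0311. The white adipose fold of Bhmt was 4.05 against 1.23 in liver, with hepatocyte markers between 7.06 and 10.09. On the dimmer Bhmt probe set the folds were 1.20 in white adipose and 1.18 in liver.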

How the results depend on the processing

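The number of rhythmic genes in liver stayed at 3 under every alternative but the one without a variance trend, where it was 2. In kidney it was 2 under all but 1: with genes under the tissue median left out of the test, 1 remained testable and called. Over all 48 pairs the count of 10 ranged from 7 (ranks, a straight line as covariate, or genes under the median left out) to 14 (array weights, or without the arrays that stand apart). The share of all genes called moved as well. In the adrenal gland it was 5.89%, against 15.8% with array weights and 3.73% without the arrays that stand apart. All 4 genes differed between tissues under every alternative, the time point as a replicate block included. Array weights apart, each of these fits still gave a gene 1 common spread over the tissues. Their agreement therefore does not settle the matter for Mat1a. With liver and 1 other tissue alone, Mat1a differed in none (lowest adjusted p 0.083). The 7 pairs that differed from liver became 15 with array weights, 15 without the arrays that stand apart and 15 with the 2 tissues alone, the last an alternative chosen after seeing the data; there were 5 with values divided by the SD of the tissue and 7 with the time point as a block. The 25 hepatocyte slopes (3.8% of all pairs of gene and tissue) became 17 without the 2 highest arrays (4.16%). They became 16 on ranks and 20 with Alb as the marker. A 12 h wave passed for 1 pair after quantile normalization and for 0 otherwise. Where no share stands beside a count, the share of all genes called under that alternative is not given here. Except where an alternative leaves out genes or arrays, the cause of a changed count was not tested. Of 544 single folds recomputed with a test, 515 kept their call, 15 lost it and 14 gained it. Of 640 folds, those without 1 array included, 14 moved by over 1.5 times, 10 in the adrenal gland and 4 in white adipose; with the hepatocyte covariate adrenal Mat1a fell to 1.06-fold, Bhmt to 1.40-fold and Gnmt to 1.46-fold, and without 1 array Mat1a reached 8.99. Labels gave no replicate numbers, so tissues share only the time point. Depth does not apply to arrays. Dim tissues near the floor genes (Mat1a and Bhmt in brain) allow no statement on whether the gene is expressed there. Brown adipose Cbs (6.45), cerebellar Gnmt (6.42) and kidney Bhmt (6.94), all called rhythmic, also lay below their tissue's median of all genes (6.88, 7.06 and 7.06). Lung Gnmt (6.93), called only with the hepatocyte covariate or without lung CT26, lay below the lung median of 7.13. Single floor genes reached 6.47 in brown adipose, 7.28 in cerebellum, 7.14 in kidney and 8.16 in lung.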

Other observations

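In the adrenal gland a 12 h wave had a fold of 18.4 for Mat1a (adjusted p 0.0575), 8.87 for Bhmt (0.0860), 7.39 for Gnmt (0.0707) and 2.17 for Cbs (0.568), none of which passed. The SD of the hepatocyte marker mean over the same arrays was 1.82.

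White adipose CT26, the highest array there for all 4 genes, had a hepatocyte marker mean of 9.88, below the 10.09 of CT30, and a pancreatic acinar mean of 7.61 against a tissue median of 5.65. Bhmt was at 10.21 on it and at 9.03 at CT30.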
